A study of Mus musculus with 3 samples.

Results

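The claudins Cldn1, Cldn3, Cldn4, Cldn5, Cldn7 and Cldn9 were followed with Epcam and Cdh1 across the cell types of the vomeronasal organ (VNO), the paired chemosensory organ of the nasal septum. These 8 genes of the 32285 counted were chosen by name, as genes of epithelial and endothelial cell contacts, and all 8 identifiers were found in every library. Single-cell RNA-seq libraries were made from whole VNO of male mice on a mixed C57BL/6J and 129P2/OlaHsd background. The P10 control library came from animals at postnatal day (P) 10 that were heterozygous for OMPCre, a Cre recombinase driven by the gene of the olfactory marker protein. The P10 mutant and 3-month mutant libraries came from double heterozygotes for OMPCre and R26AP2e, a Rosa26 transgene for the transcription factor AP-2ε, which is encoded by Tfap2e. All groups therefore carried OMPCre, and the transgene depends on Omp, a gene of vomeronasal sensory neurons (VSNs). The number of animals behind each library is not given in the sources used here. Each group had 1 library, so no test between groups was possible. A difference between the P10 libraries cannot be told apart from one between libraries of any kind, and neither can a difference between the mutant ages.

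Claudins are membrane proteins that assemble into the strands of tight junctions, where they close the space between neighbouring cells and set which ions pass. Claudin-3, claudin-4 and claudin-7 are claudins of simple and glandular epithelia, claudin-9 is best known from the inner ear, claudin-1 from skin and claudin-5 from the blood vessel barrier. Epcam is an adhesion molecule of epithelial cells that binds and stabilises claudin-7, and Cdh1 encodes E-cadherin, the calcium-dependent adhesion molecule of adherens junctions. In the VNO the receptor neurons are embedded in an epithelium of supporting and basal cells, with ciliated and glandular epithelium, blood vessels and axon-wrapping glia around it.

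Barcodes with 200 to 9000 genes and at most 10% mitochondrial unique molecular identifiers (UMIs) were kept, which left 4795, 3956 and 6960 cells in the P10 control, P10 mutant and 3-month mutant, the order used throughout. The kept cells had medians of 10236, 10767 and 5011 UMIs, and at most 9 barcodes were shared between any pair of libraries. Levels are given as CPM, the UMIs of a gene per 1000000 UMIs summed over the cells of a class. Reads came from the 3′ ends of transcripts, so a level does not scale with gene length. Brackets hold exact 95% intervals, which cover counting error only. The level in neutrophils, T cells and B lineage cells together, which are no epithelial cells, is called background. It pooled 18, 15 and 466 neutrophils, 64, 95 and 582 T cells, and 83, 85 and 31 B lineage cells. The makeup of background thus differed between P10 and 3 months. Free RNA and barcodes of more than 1 cell were not told apart there, and 1 cell held 58.9%, 31.6% and 11.9% of the Epcam UMIs and 42.6%, 24.9% and 14.9% of the Cldn4 UMIs of background. Tfap2e, the gene of the transgene, was 19.9, 500 and 206 CPM in mature VSNs, higher in both libraries labelled mutant. One epithelial class was given no cell type name, because the naming rule used here needed 3 leading markers. Of the markers of sustentacular (supporting) cells only Fezf2 and Cyp2a5 led it, and it is called Fezf2 epithelium. The authors' paper annotated sustentacular cells of adult VNO by Fezf2 and Cyp2a5.

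Cldn3 and Cldn4 lie next to each other on chromosome 5 (GRCm38, GENCODE M21 annotation). Cldn4 spans chr5:134945119-134946934 on the minus strand and Cldn3 spans chr5:134986214-134987472 on the plus strand, with 39.3 kb between them. The other genes lie apart from them: Cldn1 on chromosome 16 (chr16:26356642-26371841), Cldn5 on the same chromosome (chr16:18776847-18778262), Cldn7 on chromosome 11 (chr11:69964779-69967885), Cldn9 on chromosome 17 (chr17:23682584-23684026), Epcam also on chromosome 17 (chr17:87635979-87651129) and Cdh1 on chromosome 8 (chr8:106603351-106670246). All 8 are annotated as protein coding.

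The 250 bases upstream of the transcription start are shown for the neighbours Cldn4 and Cldn3, for Cldn7 and Epcam, and for the endothelial gene Cldn5. They are RefSeq sequences of GRCm38.p6, written 5′ to 3′ along the gene's own strand, and capitals mark the E-box CAGGTG or its reverse complement CACCTG, letters that transcription factors of the Snail and Zeb families can bind.

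Cldn4: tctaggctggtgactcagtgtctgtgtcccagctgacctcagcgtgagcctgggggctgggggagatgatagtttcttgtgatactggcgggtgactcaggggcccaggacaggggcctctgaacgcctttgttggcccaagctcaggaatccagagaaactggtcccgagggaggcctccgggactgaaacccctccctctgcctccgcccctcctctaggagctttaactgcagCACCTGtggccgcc
Cldn3: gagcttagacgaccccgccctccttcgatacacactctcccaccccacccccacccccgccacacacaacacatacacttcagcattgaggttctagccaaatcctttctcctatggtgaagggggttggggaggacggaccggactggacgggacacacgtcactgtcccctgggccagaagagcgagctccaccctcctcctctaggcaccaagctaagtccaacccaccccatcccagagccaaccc
Cldn7: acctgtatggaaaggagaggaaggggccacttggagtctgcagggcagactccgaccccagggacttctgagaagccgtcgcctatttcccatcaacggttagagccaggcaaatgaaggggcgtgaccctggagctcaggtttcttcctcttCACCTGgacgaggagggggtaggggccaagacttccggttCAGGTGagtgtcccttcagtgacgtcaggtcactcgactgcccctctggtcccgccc
Epcam: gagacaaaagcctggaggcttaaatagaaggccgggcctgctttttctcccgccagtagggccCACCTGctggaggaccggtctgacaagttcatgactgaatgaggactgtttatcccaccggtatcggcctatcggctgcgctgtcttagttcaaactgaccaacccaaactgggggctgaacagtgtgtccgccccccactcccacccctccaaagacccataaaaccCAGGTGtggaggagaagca
Cldn5: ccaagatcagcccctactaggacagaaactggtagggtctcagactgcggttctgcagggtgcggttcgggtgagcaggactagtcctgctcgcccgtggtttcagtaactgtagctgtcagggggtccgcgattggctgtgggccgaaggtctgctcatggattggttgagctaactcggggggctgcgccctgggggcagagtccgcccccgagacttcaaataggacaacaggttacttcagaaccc

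These windows lie at chr5:134946935-134947184 (minus strand) for Cldn4, chr5:134985964-134986213 for Cldn3, chr11:69965171-69965420 for the second of the listed starts of Cldn7, chr17:87635729-87635978 for Epcam and chr16:18776597-18776846 for Cldn5. The window of Cldn4 held 1 E-box, 14 to 9 bases before the start, and those of Cldn7 and Epcam held 2 each. The windows of Cldn3, Cldn5, Cldn1 and the first start of Cldn7 held 0. Of 32851 mouse promoter windows of this length 17.2% held the E-box on either strand. The neighbours Cldn3 and Cldn4 thus differed in this motif, which is a description of the letters and not a binding site. Neither AACCGGTT, bound by grainyhead-like factors and found in 0.116% of the windows, nor GCCNNNGGC, bound by AP-2 factors and found in 13.7%, was present in the windows of these genes.

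Epcam, Cldn7 and Cldn3 formed the core of the epithelial pattern. All 3 were above background in the epithelial classes, apart from Cldn3 in basal cells, and in the neuronal lineage, and Epcam was the gene with the most UMIs of the 8 in each library. In Fezf2 epithelium the level of Epcam was 2907 CPM [2875, 2940], 2841 [2809, 2874] and 2527 [2486, 2568], against a background of 135, 127 and 86.7 CPM. Cldn7, the claudin that Epcam binds, had its highest level of any class with at least 30 cells in Fezf2 epithelium, in each library: 2068 CPM [2040, 2096], 2003 [1975, 2031] and 1913 [1877, 1949]. No other class overlapped with these values, the next being 752, 861 and 887 CPM. Fezf2 epithelium alone held 57.1%, 61.2% and 51.0% of the Cldn7 UMIs of each library.

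**Figure D1:**
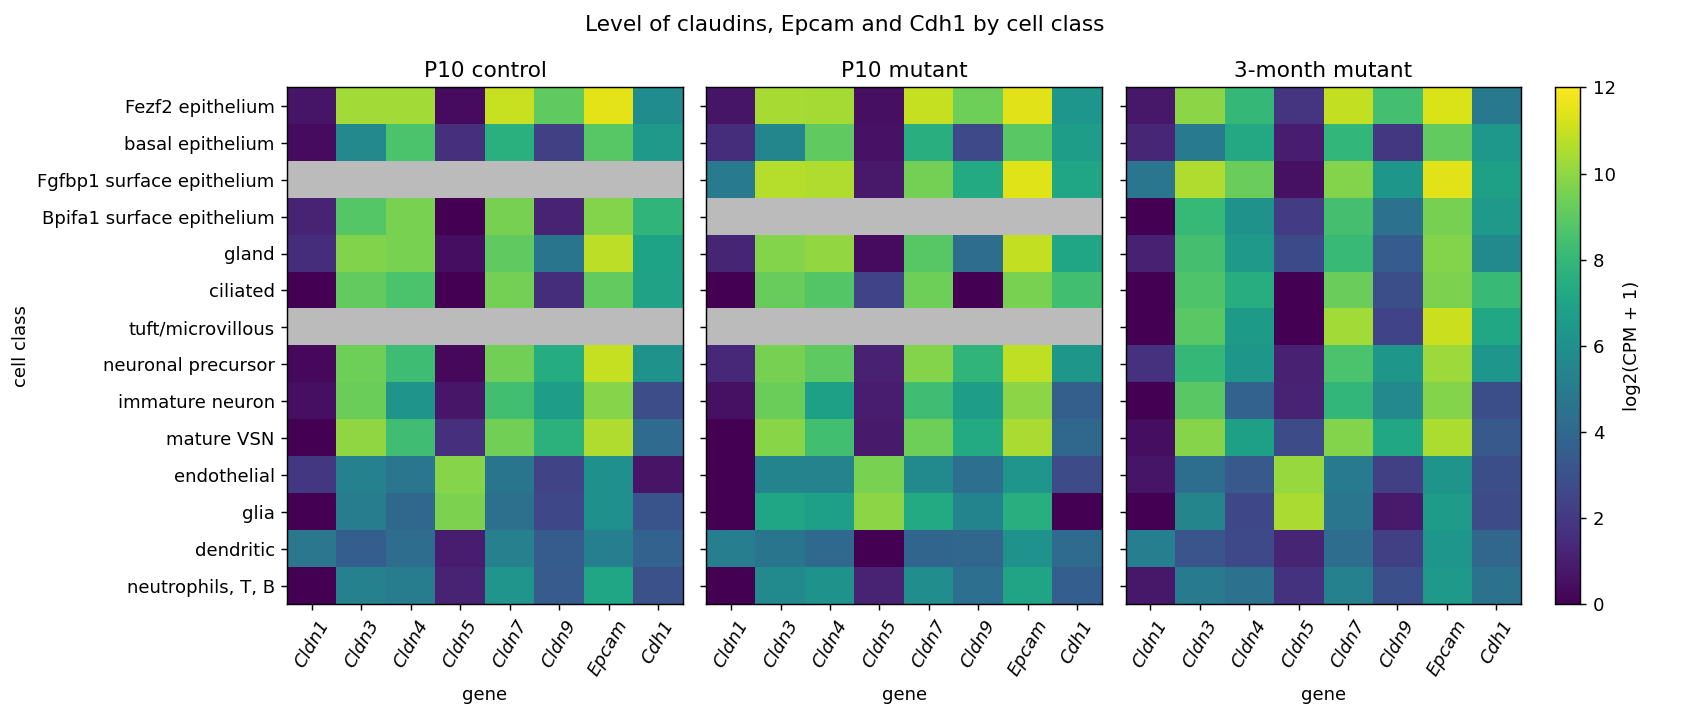
Heat maps of the level of each of the 8 genes (columns) in each cell class (rows) for the 3 libraries, with colour giving log2(CPM + 1) and grey marking a class with fewer than 10 cells. Cldn7 and Epcam are bright in the epithelial classes and the neuronal lineage, and so is Cldn3 apart from basal epithelium, where it is near background. Cldn4 is bright in the epithelial classes at P10 and lower than Cldn3 in the neuronal lineage, while Cldn5 is bright only in endothelial cells and glia.

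Cldn3 followed another order. Its level in Fezf2 epithelium was 1299 CPM [1277, 1321], 1373 [1350, 1396] and 959 [934, 985], but mature VSNs came close, at 1016 [989, 1044], 921 [883, 961] and 897 [861, 933] CPM. In both mutant libraries the highest Cldn3 level was in a surface epithelium marked by Fgfbp1 and Krt19, at 1605 [1571, 1640] and 1505 [1455, 1557] CPM. That class had 219 and 114 cells in the mutants and 1 cell in the control, so it gives no comparison of genotypes. Tfap2e, at 1043 and 648 CPM, is among the genes that define the cluster, so its size is not compared between libraries. Epcam in the same cells was 2733 [2688, 2778] and 2806 [2737, 2877] CPM. Gland and secretory cells, which make lipocalins, had Cldn3 at 834, 888 and 354 CPM and Epcam at 1815, 1931 and 867 CPM.

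Basal epithelium, the Krt5 and Trp63 class that lies against the basement membrane, stood apart. Its Cldn3 level was 48.5 CPM [43.4, 54.0], 43.8 [37.6, 50.7] and 30.1 [26.7, 33.8], not far from the background of 38.3, 53.1 and 30.8 CPM. Epcam was 464, 488 and 562 CPM and Cldn7 192, 189 and 245 CPM in the same cells, both above background. The claudin with the most UMIs in basal cells at P10 was Cldn4, at 388 CPM [374, 403] and 531 [509, 554]. At 3 months it was Cldn7, since Cldn4 was then 149 CPM [141, 157]. Different clusters held the class, cluster 5 most of the P10 cells and clusters 28 and 30 most of the 3-month cells.

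The neighbours Cldn3 and Cldn4 therefore parted between cell types. In Fezf2 epithelium at P10 there were as many UMIs of one as of the other, with a ratio of Cldn3 to Cldn4 of 1.00 [0.975, 1.02] in the control and 1.02 [0.996, 1.04] in the mutant. In basal cells the ratio was 0.125 [0.111, 0.140] and 0.0824 [0.0704, 0.0960]. In immature neurons it was 8.49 [7.59, 9.51] and 5.61 [4.90, 6.46], and in mature VSNs 3.24 [3.06, 3.42] and 2.82 [2.59, 3.06]. Background gave 1.15 [0.784, 1.69] and 0.746 [0.591, 0.940]. The ratio in basal cells lay below that interval and the ratio in neurons above it in both P10 libraries, while that of Fezf2 epithelium lay inside it in the control and above it in the mutant. At 3 months the ratio was 3.80 [3.58, 4.03] in Fezf2 epithelium, 0.202 [0.178, 0.230] in basal cells and 1.47 [1.11, 1.95] in background.

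**Figure D2:**
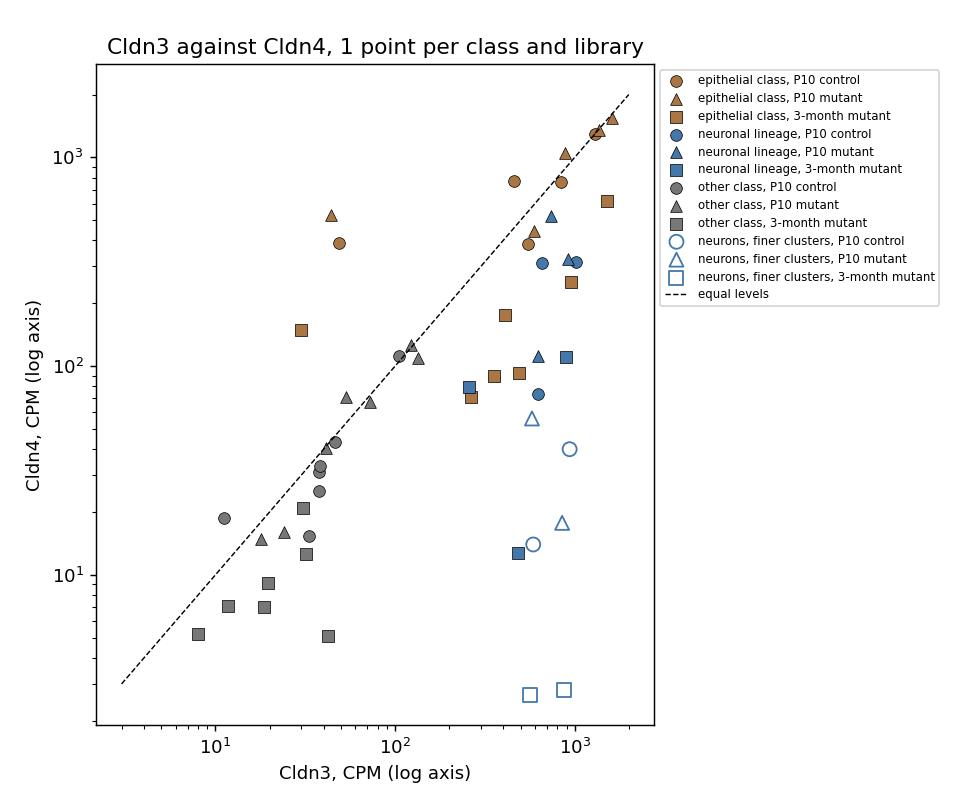
Cldn3 against Cldn4 in CPM on log axes, with 1 point for each cell class and library, open points for the neuronal clusters of the finer clustering and a dashed line at equal levels. Basal cells lie above the line, with Cldn3 between 30.1 and 48.5 CPM, and the neuronal points lie under it, with 2.82 CPM of Cldn4 in a mature VSN cluster at 3 months.

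Among neurons the finer clustering at resolution 2 and the markers of supporting cells separated the claudins further. One cluster of mature VSNs (150, 65 and 50 cells) had Cldn3 at 937 CPM [904, 970], 851 [806, 898] and 876 [820, 934], and Cldn4 at 40.0 [33.4, 47.4], 17.7 [11.8, 25.6] and 2.82 [0.581, 8.23]. A second one (64, 32 and 45 cells), with a median of 38579 UMIs against 23278 in the first, had Cldn4 at 620 [589, 652], 677 [630, 727] and 180 [160, 202] CPM and Cldn7 at 1092, 1013 and 1190 CPM. That cluster also held Fezf2 and Cyp2a5, which made up most of the sum of the 6 sustentacular genes, 296, 306 and 1067 CPM there, with 1 to 2 genes at 0, against 16.2, 5.07 and 10.3 CPM in the first cluster. Cyp2a5 was 119, 123 and 779 CPM in the second cluster and 4.27, 0.634 and 7.51 CPM in the first. Fezf2 itself was 161, 170 and 262 CPM in the second cluster and 8.85, 4.44 and 1.88 CPM in the first. Whether such barcodes hold a neuron and a supporting cell was not tested.

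Mature VSNs without a single UMI of the sustentacular list (119 of 198, 48 of 79 and 48 of 103 cells) were looked at apart. They had medians of 21440, 25482.5 and 19123.5 UMIs, against 38428, 44088 and 31032 in mature VSNs with such a UMI. The split thus also selects on depth, and a shallow cell without these UMIs can still hold RNA of supporting cells. Cldn3 in the cells without these markers was 965 CPM [925, 1006], 857 [803, 913] and 909 [845, 977], close to its level over all mature VSNs. Epcam was 1202, 1099 and 1112 CPM, and Cldn7 was 352, 313 and 423 CPM, both several times the background. Cldn4 was 40.4 [32.5, 49.6], 17.2 [10.4, 26.9] and 3.66 [0.755, 10.7] CPM, against a background of 33.3, 71.2 and 20.9 CPM, and is read as background in these cells. Cdh1 was at most 1.82 CPM, below its background of 6.79 to 21.9 CPM. Cldn9 lay between, at 106, 49.0 and 26.8 CPM against 9.87, 19.7 and 6.74 CPM. Immature neurons without these markers (366, 167 and 152 cells) had the same order, with Cldn3 at 603, 610 and 446 CPM, Epcam at 848, 868 and 771, Cldn7 at 255, 235 and 210, and Cldn4 at 18.4, 29.3 and 12.6 CPM. Median depth of these immature neurons was 10868.5, 11922 and 1026.5 UMIs, against 15380, 21572 and 2465 in those with such a UMI. The split by these markers was chosen after the values had been seen.

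Neuronal precursors, the cells of Neurod1 and Neurog1, held Epcam at 1948, 1817 and 1224 CPM. Their Cldn4 level was 311, 526 and 79.5 CPM over all cells, and 72.8, 164 and 0 CPM in those without a UMI of the sustentacular list (95, 58 and 23 cells). The 3-month value of 0 had an upper bound of 18 CPM. Precursors without such a UMI had medians of 7109, 4133 and 3921 UMIs, against 28936, 20593 and 26926 in those with one. Cdh1 was 68.7, 80.6 and 77.2 CPM in precursors, and 6.12, 11.4 and 6.37 CPM in immature neurons, against a background of 6.79, 10.9 and 21.9 CPM. Over all mature VSNs Cdh1 was 17.2 [13.8, 21.2], 15.6 [11, 21.5] and 9.36 [6.06, 13.8] CPM. At 3 months 87 of the 91 Cdh1 UMIs of background lay in T cells, and neutrophils alone had 3.04 CPM [0.829, 7.79]. Cdh1 was thus lower in the neurons than in precursors in each library, while Cldn3 and Epcam were above background in both.

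Cldn4 was lower at 3 months than in the P10 mutant in every class compared. In Fezf2 epithelium its level was 1301 CPM [1279, 1323], 1346 [1323, 1369] and 253 [240, 266]. The 3-month library lay below both P10 libraries, with a level of 0.188 [0.178, 0.198] of that of the P10 mutant. In the same cells Epcam stood at 0.889 [0.872, 0.907] and Cldn7 at 0.955 [0.933, 0.978] of the P10 mutant level. The fraction for Cldn4 was 0.280 [0.262, 0.299] in basal cells, where Epcam stood at 1.15 and Cldn7 at 1.30 of the P10 mutant level. In Fgfbp1 surface epithelium it was 0.403 [0.380, 0.427], with Epcam at 1.03 and Cldn7 at 1.2. Cldn4 was past 2-fold lower in all 7 classes compared between the mutants, though mature VSNs and immature neurons without supporting cell markers held it near background. The background of Cldn4 was lower too, at 71.2 CPM in the P10 mutant and 20.9 CPM at 3 months, and its part in these values was not tested. Its cells were mixed unlike, and B lineage cells held 122 Cldn4 UMIs in the P10 mutant and 0 at 3 months.

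Different clusters held the Fezf2 epithelium of the ages, cluster 3 holding 438 of 472 cells of the P10 mutant and cluster 31 holding 335 of 339 cells at 3 months. Within cluster 31 alone, with 34 and 335 cells of a median of 1949 and 13234 UMIs, Cldn4 was 849 and 255 CPM, a fraction of 0.301 [0.241, 0.379], while Cldn7 and Epcam were higher at 3 months by 1.73 and 2.46 times. Fgfbp1 surface epithelium lay in cluster 34 alone in both mutants. The gland cells shared by the ages lay in cluster 21, where Cldn4 was 760 CPM, 1053 CPM and 100 CPM, and the 3-month fraction was 0.0952 [0.0858, 0.105]. Epcam in that cluster was at 0.494 of the P10 mutant level, Cldn3 at 0.437 and Cldn7 at 0.612. The gland class as a whole had a median of 666 UMIs at 3 months against 17412 in the P10 mutant, and the median log2 ratio of all genes compared there was -0.77, against -3.56 for Cldn4.

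**Figure D3:**
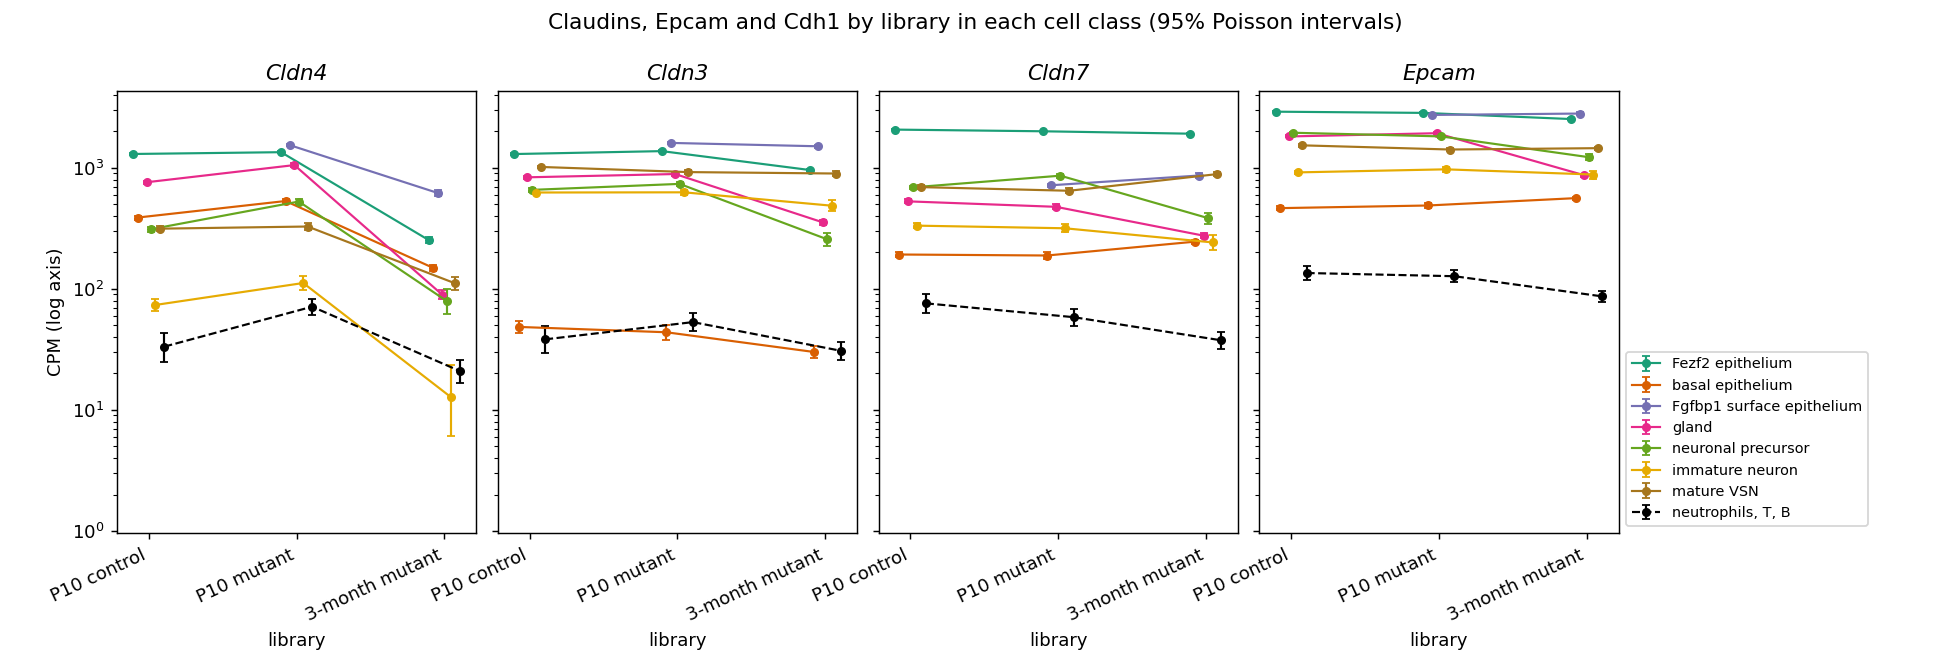
Level in CPM on log axes of Cldn4, Cldn3, Cldn7 and Epcam (1 panel each) in the 3 libraries, with 1 line per cell class, the dashed black line for background and bars for exact 95% Poisson intervals. Cldn4 is lower in the 3-month mutant than in the P10 mutant in every class drawn and in background, 253 against 1346 CPM in Fezf2 epithelium, while Epcam lies between 2527 and 2907 CPM there.

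Shares of cells with a Cldn4 UMI were lower at 3 months as well. With each cell thinned to 1000 UMIs and shallower cells left out (9, 13 and 0 cells), 67.1% [62.5, 71.5], 64.7% [60.1, 69.1] and 13.6% [10.1, 17.7] of cells of Fezf2 epithelium had a Cldn4 UMI. Over 20 other random draws the shares lay between 60.5% and 67.6%, 61.2% and 67.3%, and 14.5% and 21.5%, so the 3-month share given first was below all of them. Unthinned, the shares were 95.3%, 91.7% and 66.7%, at medians of 18477, 15840 and 13269 UMIs. Epcam was seen in 93.4%, 88.2% and 90.0% of the thinned cells. In background cells, thinned alike, Cldn4 was seen in 1.86%, 3.08% and 1.44% and Epcam in 3.73%, 4.62% and 3.74%. The median depth of background cells was 5616, 7095 and 3189 UMIs before thinning. Of the cells of Fezf2 epithelium 92.6%, 89.0% and 65.5% had at least 1 UMI of Cldn3 and of Cldn4, while 97.3%, 94.9% and 98.5% had both Epcam and Cldn7.

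Between the P10 libraries few of the 8 genes differed past 2-fold in the epithelial and neuronal classes. Over these 6 classes, 3 of 41 gene by class values were past 2-fold, 1 higher and 2 lower in the mutant. The count was 5 with the mean of CPM over cells, 9 at Leiden resolution 2 and 0 when 20 UMIs were needed. In Fezf2 epithelium 0 of 7 were past it, where 4.73% of all genes were. The counts were 2 of 8 in basal cells (7.11% of all genes), 0 of 7 in gland cells (6.42%), 0 of 6 in immature neurons (9.48%), 1 of 7 in mature VSNs (9.35%) and 0 of 6 in precursors (7.27%). All 3 values were of genes near the floor, Cldn1 and Cldn5 in basal cells and Cldn5 in mature VSNs, with levels of at most 2.21 CPM. Among the genes above background the largest ratio in these 6 classes was that of Cldn4 in precursors, 1.69 [1.57, 1.82]. Without a ranking of the rest, Cldn4 had 1.39 [1.33, 1.45] in gland cells, 1.37 [1.29, 1.45] in basal cells and 1.04 [1.01, 1.06] in Fezf2 epithelium. The background of Cldn4 was also higher in the P10 mutant, at 71.2 against 33.3 CPM, and its part in these ratios was not tested.

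Outside these classes the epithelial genes differed past 2-fold between the P10 libraries as well. In glia 5 of 6 genes compared were past 2-fold, where 13.4% of all genes were, and all 5 were higher in the mutant: Cldn3, Cldn4, Cldn7, Cldn9 and Epcam. Cldn7 in glia was 20.4 CPM in the control and 159 CPM in the mutant, a ratio of 7.83 [3.85, 18.5], and Epcam was 63.6 and 189 CPM, a ratio of 2.97 [1.94, 4.74]. All 5 were above background in glia of the mutant, where it was 58.4 CPM for Cldn7 and 127 CPM for Epcam. The Cldn7 UMIs of the mutant lay in 15 of 71 glia, and 44 of the 123 in 1 cell. In endothelial cells 3 of 7 were past 2-fold, where 8.3% of all genes were, with Cldn7, Cldn9 and Cdh1 higher in the mutant and none of them above background there by more than counting error. In T cells, which are part of background, 5 of 5 were higher, beside 14% of all genes, and in macrophages 3 of 6 were lower, beside 8.7%. Between the mutants 4 of 6 genes were past 2-fold in glia, beside 18.5% of all genes, and 3 of 7 in endothelial cells, beside 19.3%, all of them lower at 3 months and Cldn5 not among them.

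Between the mutants 19 of 50 values were past 2-fold, 3 higher and 16 lower at 3 months. At a mitochondrial limit of 5% it was 9, with gland cells and precursors not compared. At that limit Cldn7 in basal cells was 3.81 times as high at 3 months, against 1.30 times as reported, Cldn9 in basal cells passed 2-fold with 0.287, and Cldn9 in Fgfbp1 surface epithelium and immature neurons no longer did, with 0.545 and 0.748. By class they were 3 of 8 in Fezf2 epithelium, where 17.6% of all genes were past 2-fold, 1 of 8 in basal cells (17.3%), 2 of 7 in Fgfbp1 surface epithelium (18.2%), 5 of 8 in gland cells (41.3%), 4 of 6 in precursors (18.7%), 2 of 6 in immature neurons (17.2%) and 2 of 7 in mature VSNs (15.2%). Cldn4 made up 7 of the 16 lower values. Cldn9 was lower past 2-fold in precursors, immature neurons and Fgfbp1 surface epithelium. Immature neurons lay mostly in cluster 17 in the P10 mutant (111 of 186 cells) and in cluster 8 at 3 months (139 of 181), with medians of 12331 and 1080 UMIs over the class. Cdh1 in Fezf2 epithelium was 78.7 CPM [73.3, 84.4] in the P10 mutant and 27.7 [23.6, 32.4] at 3 months, where the background was 21.9 CPM and T cells alone had 33.4 CPM. The 3 higher values were all of Cldn5 and came from few UMIs: 9 of its 15 UMIs in Fezf2 epithelium and 10 of its 16 UMIs in mature VSNs at 3 months lay in 1 cell each.

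Cldn9 was the claudin most restricted to Fezf2 epithelium within the epithelia. Its level there was 532 CPM [518, 546], 648 [632, 664] and 344 [329, 360], and these cells held 64.3%, 71.1% and 68.7% of its UMIs. Gland cells had 24.3, 18.3 and 10.3 CPM, and basal cells 3.83, 5.35 and 2.80 CPM, below the background of 9.87, 19.7 and 6.74 CPM. Precursors (174, 232 and 79.5 CPM) and mature VSNs (208, 161 and 146 CPM) came next. Fgfbp1 surface epithelium had 160 and 79.5 CPM in the mutants.

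Cdh1 was low in all classes and had its own order. In ciliated cells, a class of 19, 11 and 48 cells, it was 119 CPM [91.0, 153], 331 [262, 413] and 275 [236, 319]. In the surface epithelium marked by Bpifa1, a secreted airway protein, it was 229 [197, 265] CPM in the control and 89.0 [70.7, 111] at 3 months, with 0 cells in the P10 mutant. Gland cells had 124, 137 and 50.2 CPM and basal cells 87.5, 102 and 82.3 CPM. Fezf2 epithelium, with the highest Cldn7 level and at P10 the highest or second highest Cldn4 level, had a Cdh1 level of only 56.0, 78.7 and 27.7 CPM. The number of Epcam UMIs per Cdh1 UMI was accordingly 52.0, 36.1 and 91.1 there, against 5.30, 4.79 and 6.82 in basal cells.

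Cldn1 had its highest levels in dendritic cells and, among the named epithelial classes of the mutants, in Fgfbp1 surface epithelium. In the control most of its UMIs lay outside dendritic cells. Dendritic cells held 25.4%, 19% and 41.7% of its UMIs, and Fgfbp1 surface epithelium 56.9% and 22.3% in the mutants. Dendritic cells had the highest level in each library, 26.5 CPM [18, 37.6], 34.0 [25.3, 44.7] and 35.7 [29.2, 43.3], against a background of 0, 0 and 0.722 CPM. Granulocyte progenitors had 19.4 and 9.38 CPM at P10. Among the named epithelial classes Cldn1 was highest in Fgfbp1 surface epithelium, at 29.5 [25, 34.6] and 24.9 [18.7, 32.4] CPM. These intervals overlapped with those of the dendritic cells. Fezf2 epithelium had at most 0.702 CPM and basal cells at most 1.95 CPM.

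Cldn5 marked endothelial cells and glia. In endothelial cells, the cells that line blood and lymph vessels, it was 914 CPM [870, 960], 772 [741, 803] and 1128 [1092, 1164]. In the class of ensheathing and Schwann glia, which wraps axons, it was 781 CPM [696, 873], 956 [888, 1027] and 1446 [1378, 1517]. Glia over endothelium gave 0.854 [0.754, 0.966], 1.24 [1.14, 1.35] and 1.28 [1.21, 1.36]. The glia class holds ensheathing and Schwann cells, and their shares were not held equal between libraries in these ratios. Every other class with at least 30 cells had at most 12.3 CPM, and background was 1.23, 1.21 and 2.41 CPM.

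**Figure D4:**
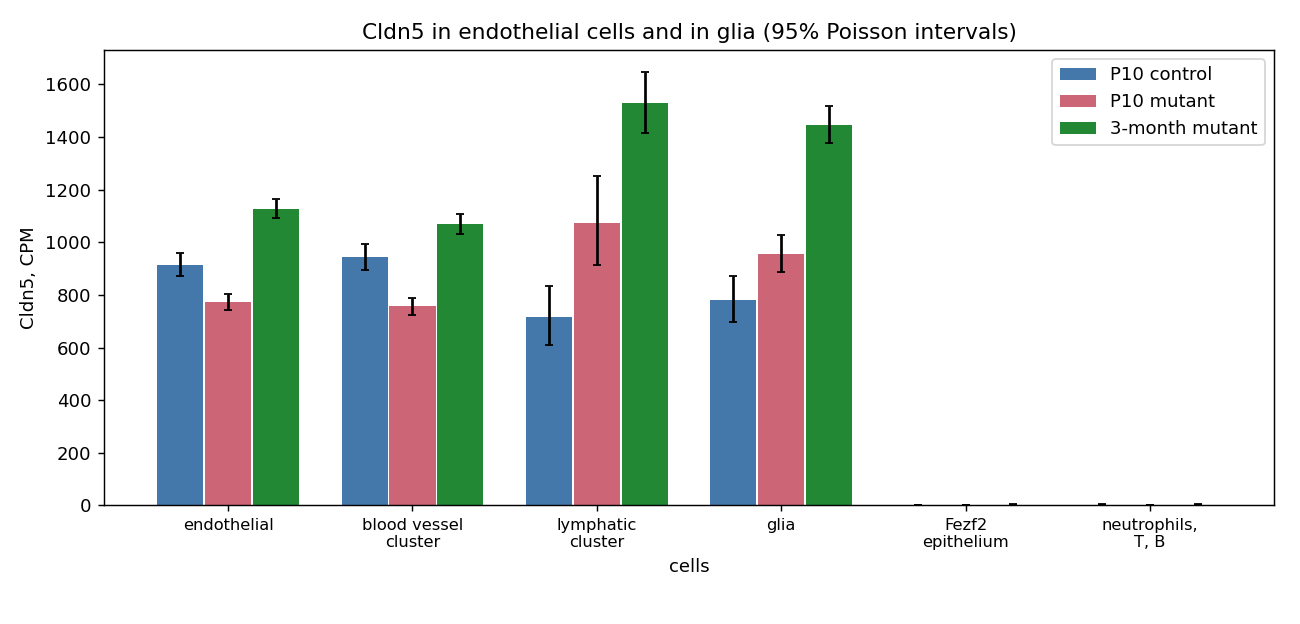
Bars of the Cldn5 level in CPM, from 0, in each library, for endothelial cells with their blood vessel and lymphatic clusters, all glia, Fezf2 epithelium and background, with exact 95% Poisson intervals. Glia stand at 781, 956 and 1446 CPM and endothelial cells at 914, 772 and 1128 CPM, while Fezf2 epithelium and background are near 0.

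A Cldn5 UMI was seen in 47.4%, 47.9% and 39.1% of all glia and in 80.7%, 78.7% and 81.4% of endothelial cells. Few glia with Cldn5 had endothelial UMIs. Of the 27, 34 and 68 glia with a Cldn5 UMI, 1, 0 and 3 had a UMI of the endothelial genes Pecam1 or Cdh5, against 130 of 161, 189 of 216 and 334 of 376 endothelial cells. The 10 endothelial markers summed to 76.3, 85.5 and 122 CPM in glia, with 5, 5 and 1 of them at 0, and to 7130, 6228 and 6917 CPM in endothelial cells. The 5 lymphatic markers summed to 2.54, 1.29 and 173 CPM in glia, with 4, 4 and 1 at 0, and to 867, 919 and 2823 CPM in endothelial cells.

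Blood and lymph vessels both held Cldn5. The blood endothelial cluster of the finer clustering (98, 170 and 281 cells) had 943 [896, 993], 756 [725, 788] and 1069 [1032, 1107] CPM, and the lymphatic one (63, 46 and 96 cells) had 715 [610, 833], 1074 [915, 1252] and 1528 [1413, 1649] CPM. Epcam in the lymphatic cluster was 131 [88.3, 187], 563 [450, 696] and 198 [159, 245] CPM, near the background of 135 CPM in the control and above that of 127 and 86.7 CPM in the mutants. In the P10 mutant glia other members stood above their usual background, with Cldn3 at 133 CPM, Cldn4 at 109 CPM and Cldn7 at 159 CPM, and 26 of the 84 Cldn4 UMIs came from 1 cell. With each cell thinned to 1000 UMIs, Cldn5 was seen in 46.7%, 38.7% and 55.5% of endothelial cells, 29.4%, 36.2% and 35.8% of glia, and 0.621%, 0% and 0.287% of background cells.

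Across 51 profiles of a class in a library with at least 50 cells, the levels of Epcam and Cldn7 had a Pearson correlation of 0.95 on the log2(CPM + 1) scale. Cldn3 and Cldn7 had 0.93, Cldn3 and Cldn4 had 0.83, and Cldn5 had a negative one with each of the other members. The profiles share libraries and depth, and the values are given as a description. Of 14906 genes compared, the nearest to Cldn7 were the keratins Krt8 (0.97), Krt23 (0.96) and Krt18 (0.96), and the nearest to Epcam were Slc27a2, Krt18 and Krt8 (all 0.95). Krt8 (0.95), Arhgef38 (0.94) and Slc27a2 (0.94) were nearest to Cldn3. Among the nearest to Cldn4 were Ovol1 (0.95), a transcription factor of epithelia, and Krt8 (0.93). Cldn9 had Agr3, Cldn6 and Svopl (all 0.92), Cldn5 had Clca3a1 (0.95), Prex2 (0.91) and Colgalt2 (0.89), Cdh1 had Gm5860 (0.88), Lad1 (0.88) and Cblc (0.87), and Cldn1 had no gene above Ffar4 (0.66), followed by Tnip3 (0.65) and Cd209d (0.64).

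The other genes of the junctions, a list of 80, gave the setting of the 8. Over all epithelial classes the highest of the other 26 claudins were Cldn10 (117, 63.0 and 75.6 CPM), Cldn23 (101, 151 and 75.9 CPM) and Cldn6 (54.4, 67.3 and 9.98 CPM). Among the partners of Epcam, Spint2 had 881, 996 and 643 CPM and Spint1 had 162, 265 and 83.6 CPM. Spint1 and Spint2 encode protease inhibitors of the cell surface. F11r, the junctional adhesion molecule A, had 162, 160 and 103 CPM, above Crb3. Ctnnb1, which encodes the β-catenin bound by E-cadherin, had 254, 262 and 178 CPM, above Ctnna1 and Nectin3. Of the desmosome genes Perp (276, 239 and 203 CPM), Dsp (240, 222 and 235 CPM) and Dsc2 were highest, and of the epithelial regulators Elf3 (465, 497 and 292 CPM), Ehf (229, 193 and 164 CPM) and Ovol1 (89.7, 210 and 23.0 CPM). The repressors of Cdh1 were low, Snai2 leading with 9.45, 5.78 and 15.3 CPM, then Twist1 and Zeb2.

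In endothelial cells the list looked different. Esam, an adhesion molecule of endothelial junctions, had 702, 586 and 466 CPM, F11r 287, 231 and 168 CPM, and Tjp1, which encodes the scaffold ZO-1, 137, 117 and 262 CPM. Zeb1, a repressor of Cdh1, had 131, 121 and 97.2 CPM there and at most 1.40 CPM in Fezf2 epithelium. Among the other claudins Cldn10 was 109 CPM in the control and 0.652 and 5.61 CPM in the mutants, followed by Cldn11 (39.9, 24.4 and 6.2 CPM) and Cldn34c1 (13.5, 16.9 and 10.6 CPM). Cldn10 was 117 CPM over all epithelial classes of the control. It was past 2-fold lower in the P10 mutant also in basal cells, precursors, immature neurons, mature VSNs and glia, but not in Fezf2 epithelium or gland cells. No background of Cldn10 is given, and a part of free RNA in its levels was not tested. Ctnnb1 (389, 412 and 339 CPM), Ctnna1 and Nectin2 were the highest adherens junction genes, and of the partners of Epcam Spint2 led with 109, 102 and 110 CPM. The desmosome gene Perp had 18.6, 4.24 and 14.2 CPM and the regulator Elf3 13.5, 24.4 and 17.1 CPM.

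Between the P10 libraries 2 of 61 listed genes compared in Fezf2 epithelium were past 2-fold, Jam2 and Grhl3, both higher in the mutant, which is 3.28% beside 4.73% of all genes. In basal cells 2 were higher and 3 lower of 59, or 8.47% beside 7.11%. Precursors had 15% beside 7.27%, endothelial cells 19.6% beside 8.30%, and glia, with 28 genes compared, 35.7% beside 13.4%. Gland cells had 9.09% beside 6.42%, immature neurons 9.26% beside 9.48% and mature VSNs 7.41% beside 9.35%. Between the mutants 3 of 57 were higher at 3 months in Fezf2 epithelium and 14 lower, which is 29.8% of those compared beside 17.6% of all genes, with a median log2 ratio of -0.38 beside -0.02. Among the lower ones were Cldn6 and Cldn23, Ocln, Marveld2 and Jam3 of the tight junction, Nectin1 and Nectin2 of the adherens junction, Spint1 among the partners of Epcam, and the regulators Grhl3 and Ovol1. Snai1 and Twist1 were lower as well. The 3 higher ones were Cldn34c1, Cldn8 and Zeb1. As a group the other claudins were not lower, with a median log2 ratio of 0.09. In Fgfbp1 surface epithelium 12 of 56 were lower and 3 higher, or 26.8% beside 18.2% of all genes. In basal cells 4 of 58 were lower and 3 higher, or 12.1% beside 17.3%, and in mature VSNs 3 of 51 were lower and 2 higher, or 9.80% beside 15.2%. Gland cells had 63.3% beside 41.3%, precursors 37.0% beside 18.7% and immature neurons 30.6% beside 17.2%. Endothelial cells had 26% beside 19.3% and glia 45.9% beside 18.5%. Ocln, which encodes occludin, was past 2-fold lower in Fezf2 epithelium, Fgfbp1 surface epithelium and basal cells but not in mature VSNs. Ovol1 was past 2-fold lower in all of these classes. Ovol1, nearest to Cldn4 in pattern, had 134, 183 and 17.4 CPM in Fezf2 epithelium and 47.0, 77.4 and 14.4 CPM in basal cells, so that both genes were lower at 3 months in the same classes.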

How the data were processed

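Droplet libraries (10x Genomics 3′ chemistry) were made from frozen suspensions of dissociated whole VNO. The authors made the deposited values, whole counts of UMIs per gene and barcode without normalization, with Cell Ranger against mm10. Per the file headers its version was 4.0.0 at P10 and 6.0.1 at 3 months. The labels name 4.0.0 for all, with Seurat 3.2.3 and bcl2fastq. Total UMIs were 83870584, 80760046 and 70074800.

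Kept barcodes had 200 to 9000 genes and at most 10% mitochondrial UMIs. The study used a 5% limit. Cells of all libraries were clustered together with scanpy 1.11.5 (2000 variable genes, 30 components, 20 neighbours, Leiden resolution 1), with the 8 genes, the junction list and the vomeronasal receptor genes left out. Clusters were named from marker lists, needing 3 leading markers. The naming rule, the Fezf2 class (at least 200 CPM of Fezf2) and the split of neurons by sustentacular UMIs were chosen with clusters and values in view. Differences from the study may come from these rebuilt names. The genes and lists were chosen with earlier results of these data known. Named list genes are the 3 highest of each role in epithelial or endothelial cells of the P10 control, beside the 3 genes nearest in pattern to each member. List genes named for passing 2-fold were chosen after their values were seen. Some genes that these rules name are not reported here. Clusters left unnamed held 1037, 739 and 53 cells. Scrublet marked 1, 1 and 0 barcodes and so did not work, and doublets were not removed. Free RNA was not corrected.

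Levels have exact Poisson, ratios conditional exact binomial and shares Clopper-Pearson 95% intervals, for counting error only. A ratio needed 30 cells in each library and 10 UMIs together. The ratio step was tested on simulated data. With 1 library per group no test across libraries was run. Promoter letters and coordinates came from RefSeq (GRCm38.p6) and GENCODE M21. Cldn9 and Cdh1 promoters were not used here. Versions were Python 3.11.15, numpy 2.4.6, scipy 1.17.1, pandas 2.3.3, leidenalg 0.10.2, scikit-learn 1.9.0 and matplotlib 3.10.9. Mitochondrial, gene and UMI limits, doublet scores, cell weighting, clustering resolution, normalization, low counts and thinning were varied, and clusters of very low or very high depth were left out as alternatives added after the data had been seen.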

Additional observations from a re-analysis of the deposited data

How the results depend on the processing

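No paired analysis was possible because each group has 1 library, and for the same reason no replicate could be left out. The level of Cldn4 at 3 months over the P10 mutant was at or below 0.5 in 74 of 75 values over 7 classes and all settings, the exception being 0.651 in immature neurons with the mean of CPM over cells. In Fezf2 epithelium it stayed between 0.168 and 0.220 and in Fgfbp1 surface epithelium between 0.389 and 0.428. At a mitochondrial limit of 5% the members past 2-fold between the mutants were 9 in place of 19, and the genes of the junction list 51 in place of 117, with gland cells and precursors giving no ratio there and single calls of Cldn5, Cldn7 and Cldn9 changing as well. The cause was not tested for the next values. Between the P10 libraries the members past 2-fold were 5 with the mean of CPM over cells and 9 at Leiden resolution 2, and the list genes were 58 with the mean of CPM over cells in place of 30. Needing 20 UMIs for a ratio leaves out the low genes by construction and gave 0 members and 17 list genes. Epcam and Cldn7 were seen together in 99.8% of Fezf2 epithelium of the P10 control among cells with at least 2000 UMIs and in 93.7% at resolution 2. The share of Fezf2 epithelium with a Cldn4 UMI with 500 UMIs per cell was 47.0% (P10 control) and 44.3% (P10 mutant), and over 20 other draws it went down to 60.5% in the P10 control and up to 21.5% at 3 months. Among the single ratios 245 kept their side of 2-fold, 32 passed it and 10 no longer did. Direction was checked only for ratios past 2-fold as reported, and none of these reversed. Of the single levels and shares 149 stayed within their intervals and 85 moved out of them, and of the counts and shares that answer a comparison 52 held and 13 moved. Leaving out the clusters of highest depth, an alternative chosen after seeing the data, brought Cldn4 in mature VSNs to 49.0, 21.0 and 3.80 CPM and left Cldn3 at 950, 848 and 898 CPM. Cldn1 in Fezf2 epithelium and basal cells, Cldn5 in epithelial classes and Cdh1 in neurons lie near 0 or background. Their few UMIs limit what can be read from them, and the part of depth was not tested.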

Other observations

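A cluster that was given no name held 169 cells of the P10 control and 1 and 3 cells of the mutants, with a median of 1226 UMIs. Led by the secretory genes Scgb1b27 and Lcn11, it had Epcam at 1674 CPM [1585, 1766] and Cldn3 at 991 CPM [923, 1063] in the control. Cldn4 was at only 147 CPM [121, 176] there. Cldn1 was at 23.8 CPM [14.3, 37.2], near its level in dendritic cells, Fgfbp1 surface epithelium and the granulocyte progenitors of the control.

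Cdh1 in T cells was 0 CPM [0, 7.89], 2.71 [0.329, 9.80] and 33.4 [26.8, 41.2] in the 3 libraries, with Cldn3 at 12.8, 27.1 and 17.7 CPM in the same cells. The T cells of the libraries came from different clusters for the most part, 505 of the 582 at 3 months lying in cluster 26 and 50 of 64 and 77 of 95 at P10 in cluster 10.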
